A study of Mus musculus with 6 samples.

Results

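The genes described are members of the PI3K, AKT and mTOR pathway, followed in regulatory T cells (Treg cells) of the mouse colon. They were taken by symbol from a count table of 32161 rows and are Pik3cd, Pik3r1, Akt1, Akt2, Tsc1, Tsc2, Mtor, Rptor and Rictor, 9 genes in all. RNA was sequenced in bulk from live CD45+ CD4+ Foxp3+ cells sorted from the lamina propria of untreated mice on the C57/BL6 background. The WT group (Foxp3YFP-Cre, n = 3 libraries) expressed Cre recombinase and YFP from the Foxp3 gene, and the KO group (Il23rflflFoxp3YFP-Cre, n = 3 libraries) carried the same Cre with floxed Il23r, which encodes a subunit of the receptor for interleukin-23. Each library was a pool of at least 5 mice. The Cre is thus shared by both groups. By design recombination is meant for cells in which Foxp3 is or was active, and where it took place was not tested.

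The pathway relays signals from antigen receptor, costimulatory and cytokine receptors to growth and metabolism. PI3K makes a lipid signal at the plasma membrane that recruits the kinase AKT, AKT inhibits the TSC complex, and loss of TSC activity frees the GTPase RHEB to switch on mTOR complex 1 (mTORC1). mTOR complex 2 (mTORC2) in turn phosphorylates AKT. In Treg cells mTORC1 is known to be needed for suppressive function, while strong PI3K and AKT signalling is known to destabilise the Foxp3 programme, partly by driving the transcription factors FOXO1 and FOXO3 out of the nucleus. These steps act mostly through phosphorylation, which RNA levels do not measure.

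The 6 libraries held 9680503 to 20654340 estimated counts. WT2 had an RNA integrity number of 5, and the other libraries had 7.9 to 8.8. Sorting took place in 4 labelled batches, of which only the first held both genotypes (WT1 and KO1). KO2 and KO3 were the closest pair (Pearson r = 0.97 across 12557 genes, against at most 0.91 for any other pair). Il23r stood at 18.4 CPM (counts scaled to each library's size with TMM factors) in the library labelled KO1, inside the WT range of 13.6 to 38.3 CPM, although a count over the whole gene says nothing of one deleted exon. Il23r was at 4.99 CPM in KO2 and 8.96 CPM in KO3, both below the WT range. Xist, the RNA of the inactive X chromosome, was at 1182 to 3472 CPM in KO and at most 0.284 CPM in WT, so sex and genotype cannot be told apart for any gene below. All 8 Treg and T cell markers had counts in every library, with a summed level of 7969 to 8682 CPM in WT and 7836 to 8643 CPM in KO. Macrophage and dendritic cell markers, 10 of 10 with counts in every library, summed to 227 to 358 CPM in WT against 347 to 692 CPM in KO, and 0 passed the test. Epithelial markers, 2 of 8 with counts in every library, summed to 12.7 to 38.5 CPM in WT against 54.3 to 134 CPM in KO, and 1 of 7 tested passed. They did not move together. Mean levels in WT and KO were 0.034 and 33.8 CPM for Fcgbp and 0.948 and 39.9 CPM for Clca1. Zg16, Krt8 and Krt18 were also higher in KO on average. Epcam (11.2 and 6.04 CPM) and Cdh1 (8.85 and 3.45 CPM) were lower in KO on average, with overlapping groups. B and plasma cell markers, 4 of 5 with counts in every library, summed to 169 to 747 CPM in WT against 227 to 314 CPM in KO. CD8 T and NK cell markers summed to at most 6.81 CPM in any library, with Ncr1 at 0, and stromal and endothelial markers to at most 96.7 CPM. The mast cell and neutrophil markers Cpa3, Mcpt1, S100a8 and S100a9 were at 0 in all 6 libraries. The part of these other cells in the values below was not tested.

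The members differ in base composition, which matters below because group differences followed it across all genes. GC content of the principal GENCODE M21 transcript ran from 42.5% in Rictor and 44.9% in Pik3r1, through 51.6% in Tsc1, 54.2% in Mtor, 54.7% in Tsc2, 55.2% in Akt2, 56.5% in Rptor and 57.0% in Pik3cd, to 59.7% in Akt1. The central 90 coding bases of the GC-richest and the GC-poorest members, and of Akt2 beside its paralog Akt1, show the contrast, with G and C in capitals:
Akt1: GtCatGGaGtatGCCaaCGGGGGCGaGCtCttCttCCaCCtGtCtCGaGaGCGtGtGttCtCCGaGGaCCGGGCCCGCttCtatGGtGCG
Akt2: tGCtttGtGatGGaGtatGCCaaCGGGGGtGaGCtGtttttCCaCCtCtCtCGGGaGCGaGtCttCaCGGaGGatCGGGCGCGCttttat
Pik3r1: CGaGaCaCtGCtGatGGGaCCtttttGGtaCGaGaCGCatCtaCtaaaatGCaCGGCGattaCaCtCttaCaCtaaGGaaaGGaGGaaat
Rictor: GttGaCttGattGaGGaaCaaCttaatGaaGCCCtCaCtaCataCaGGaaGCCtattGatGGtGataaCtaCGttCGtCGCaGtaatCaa
G and C made up 62.2% of this stretch in Akt1, 55.6% in Akt2, 45.6% in Pik3r1 and 41.1% in Rictor.

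The sequences also show how far reads of the members can be told from those of other genes. The Akt1 and Akt2 stretches above carry the same position numbers, 676 to 765 from the start codon. They are not aligned, so matching bases do not stand in the same column. The longest run of bases that both principal transcripts share is 32 bases, printed here to show how alike the paralogs are at their closest:
shared run of Akt1 and Akt2: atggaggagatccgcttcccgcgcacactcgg
Of 2660 words of 31 bases in the principal transcript of Akt1, 3 also occur in a transcript of Akt2. Akt2 shared 21.4% of its words of 31 bases with the pseudogene Akt2-ps, so reads of the pair may not be told apart there and its level is uncertain. The size of that error was not measured. Tsc2 shared 9.05% with Pkd1, an overlapping gene on the opposite strand, and without strand these reads cannot be told apart. Pkd1 itself was at 57.2 to 106 CPM for WT and 68.7 to 102 CPM for KO. Rptor shared 0.884% with the antisense transcript Rptoros, and the other members shared at most 0.621% with any other genes.

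No member passed the test between the groups, and the largest differences lay at Akt1, Tsc2, Akt2 and Mtor. Akt1, Akt2 and Tsc2 were higher in each KO library than in any WT library, Mtor was lower in each, and the other 5 genes overlapped. With edgeR's quasi-likelihood test adjusted over 12557 genes, 0 of 9 members were called at 0.05 where 0.0239% of all genes tested were, 0.0159% with KO higher and 0.00796% with KO lower. DESeq2 also called 0 of 9 (1.89% of all genes it gave an adjusted p), as did limma-voom (0.0239%). Unadjusted p-values lay under 0.05 for 4 of 9 members, against 9.29% of all genes tested. Groups did not overlap in 4 of 9 members against 17.7% of all genes, 3 with KO higher (9.68% of all genes) and 1 with KO lower (8.01%). The members' median log2 fold change (KO over WT) was 0.15, against -0.04 over all genes tested. It was 0.045 by limma-voom and turned to -0.02 without WT3. Since the members were chosen with earlier results of these data known, these counts are a description. In bulk RNA, fewer cells that express a gene and less of its RNA per cell cannot be told apart.

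**Figure D1:**
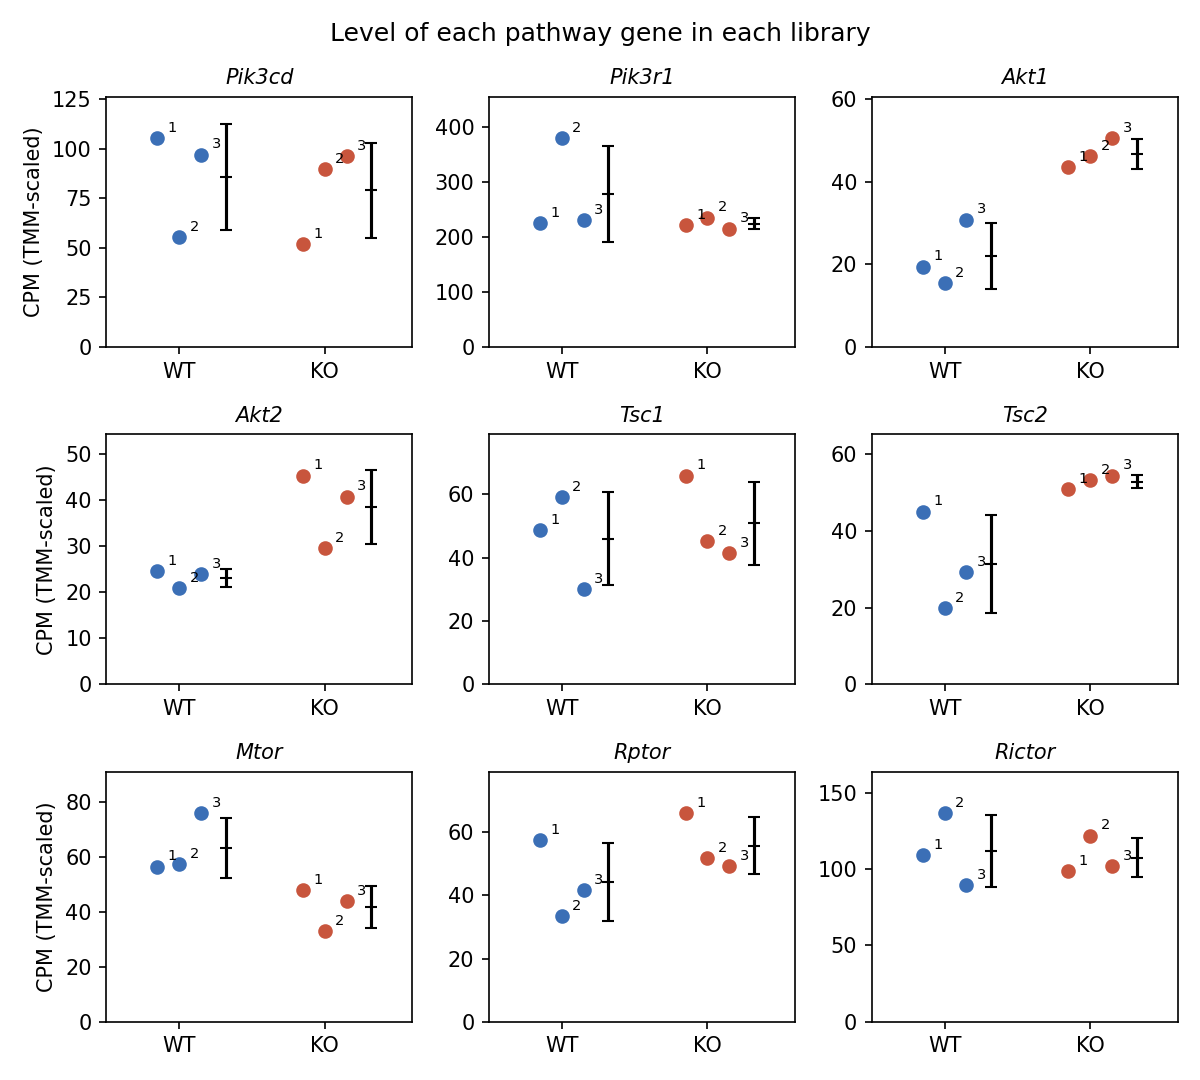
Level of each member in CPM (TMM-scaled, vertical axis from 0) in the 3 WT (blue) and 3 KO (red) libraries, numbered by replicate, with group mean and SD as black bars. Akt1, Akt2 and Tsc2 show no overlap with KO higher and Mtor none with KO lower.

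The PI3K enzyme of leukocytes was represented by its catalytic subunit p110δ, encoded by Pik3cd (Entrez 18707), and by the regulatory subunits made from Pik3r1 (Entrez 18708), which stabilise the catalytic subunit and bring it to activated receptors. Levels of Pik3cd, here and below in the order of replicates 1, 2 and 3, were 105, 55.3 and 97.0 CPM for WT and 51.7, 89.5 and 96.0 CPM for KO. One library in each group was low, WT2 and the library labelled KO1, and the groups overlapped. The log2 fold change was -0.12 (SE 0.32, 95% interval -0.85 to 0.61, edgeR, adjusted p = 0.935). In the sort batch that held both genotypes (WT1 and the library labelled KO1), KO minus WT in log2 CPM was -1.02. Its log2 fold change turned positive without that KO library (0.10) and without WT1 (0.046). Pik3r1 was at 226, 379 and 231 CPM for WT and 222, 235 and 215 CPM for KO. Apart from WT2 the 5 libraries lay within 215 to 235 CPM. Its log2 fold change was -0.31 (SE 0.23, 95% interval -0.83 to 0.21, edgeR, adjusted p = 0.697), and -0.04 without WT2.

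The AKT kinases carry the PI3K signal on. Akt1 (Entrez 11651), the broadly expressed form, was at 19.4, 15.4 and 30.8 CPM for WT and at 43.4, 46.2 and 50.5 CPM for KO. The highest WT library, WT3, lay below the lowest KO library. The log2 fold change was 1.09 (SE 0.33, 95% interval 0.34 to 1.84), a fold of 2.13, with an unadjusted p of 0.00931 and an adjusted p of 0.448 by edgeR. DESeq2 gave an adjusted p of 0.0685 and limma-voom 0.187, and the range over 18 alternatives was 0.0685 to 0.999. In no alternative was Akt1 called, and its log2 fold change ran from 0.79 to 1.42 across them. Akt2 (Entrez 11652), best known for its part in insulin signalling, was at 24.6, 20.97 and 24.0 CPM for WT and at 45.3, 29.6 and 40.7 CPM for KO. WT was narrow and KO was spread over 15.7 CPM, with KO2 closest to WT. The log2 fold change was 0.73 (SE 0.31, 95% interval 0.05 to 1.42, edgeR, adjusted p = 0.519). In the mixed sort batch, KO minus WT in log2 CPM was 1.15 for Akt1 and 0.88 for Akt2.

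The TSC complex restrains mTORC1. Tsc2 (Entrez 22084), the subunit that acts on RHEB, was at 45.0, 19.9 and 29.2 CPM for WT and at 50.9, 53.2 and 54.3 CPM for KO. The KO libraries lay close together, and WT1 came near to them. The log2 fold change was 0.75 (SE 0.33, 95% interval 0.01 to 1.49, edgeR, adjusted p = 0.537). In the mixed sort batch, KO minus WT in log2 CPM was 0.18 for Tsc2, 0.44 for Tsc1, 0.20 for Rptor, -0.15 for Rictor and -0.03 for Pik3r1. Tsc1 (Entrez 64930), which stabilises Tsc2, was at 48.6, 59.1 and 30.1 CPM for WT and at 65.8, 45.1 and 41.3 CPM for KO. The groups overlapped widely, and the log2 fold change was 0.15 (SE 0.33, 95% interval -0.59 to 0.88, edgeR, adjusted p = 0.921).

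Mtor (Entrez 56717) encodes the kinase that both mTOR complexes share. Mtor was at 56.6, 57.5 and 76.1 CPM for WT and at 48.0, 33.2 and 44.1 CPM for KO. The lowest WT library stood above the highest KO library, by less than the range within either group. The log2 fold change was -0.60 (SE 0.27, 95% interval -1.20 to -0.0017, edgeR, adjusted p = 0.538), and KO minus WT was -0.24 in log2 CPM in the mixed sort batch. Rptor (Entrez 74370), the scaffold that defines mTORC1, was at 57.4, 33.3 and 41.6 CPM for WT and at 65.8, 51.8 and 49.1 CPM for KO. WT1 lay among the KO libraries, and the log2 fold change was 0.33 (SE 0.29, 95% interval -0.32 to 0.98, edgeR, adjusted p = 0.748). Rictor (Entrez 78757), the scaffold that defines mTORC2, was at 109, 136 and 89.7 CPM for WT and at 98.5, 122 and 102 CPM for KO. The WT range enclosed all 3 KO libraries, and the log2 fold change was -0.06 (SE 0.23, 95% interval -0.57 to 0.45, edgeR, adjusted p = 0.954).

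**Figure D2:**
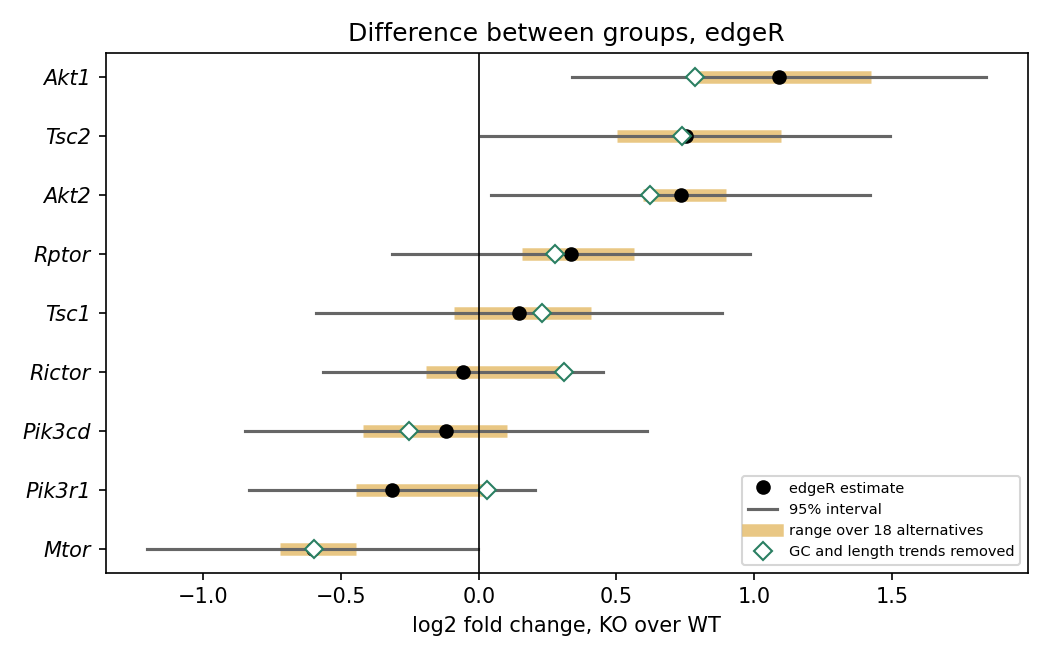
Log2 fold change of KO over WT (horizontal axis) for the 9 members by edgeR (black points) with 95% intervals (grey lines), the range over 18 alternatives (yellow bars) and the value with GC and length trends removed (open diamonds). The intervals of Akt1, Tsc2, Akt2 and Mtor exclude 0 before adjustment over all genes, and Rictor and Pik3r1 change sign with the trends removed.

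The balance between partner genes was compared within libraries, which does not depend on how libraries are scaled. A ratio is not free of a library's trend with GC content where partners differ in it. Rptor (56.5%) and Rictor (42.5%) differ so, as do Pik3cd (57.0%) and Pik3r1 (44.9%). Akt1 (59.7%) and Akt2 (55.2%) differ less, as do Tsc1 (51.6%) and Tsc2 (54.7%). The part of GC content in the ratios was not tested. Log2 ratios of counts for 4 pairs were tested with an exact two-sided permutation test, where 3 libraries against 3 cannot give a p below 0.1. The log2 ratio of Akt1 to Akt2 was -0.34, -0.44 and 0.36 in WT and -0.06, 0.64 and 0.31 in KO. Its mean differed by 0.44 and the groups overlapped (exact permutation p = 0.3, adjusted over 4 ratios 0.6). It was 0.29 without WT2, 0.26 without KO2 and 0.69 without WT3. The log2 ratio of Rptor to Rictor, the scaffolds of the 2 mTOR complexes, was -0.93, -2.03 and -1.11 in WT and -0.58, -1.23 and -1.05 in KO. The difference of 0.40 did not pass (exact permutation p = 0.5, adjusted 0.667) and was 0.062 without WT2. The log2 ratio of Tsc1 to Tsc2 was 0.11, 1.56 and 0.04 in WT and 0.37, -0.24 and -0.39 in KO. WT2 alone stood high, and the difference of -0.66 (exact permutation p = 0.3, adjusted 0.6) shrank to -0.16 without it. The log2 ratio of Pik3cd to Pik3r1 was -1.10, -2.78 and -1.25 in WT and -2.10, -1.39 and -1.16 in KO. The difference was 0.16 (exact permutation p = 0.9, adjusted 0.9) and turned to -0.38 without WT2.

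**Figure D3:**
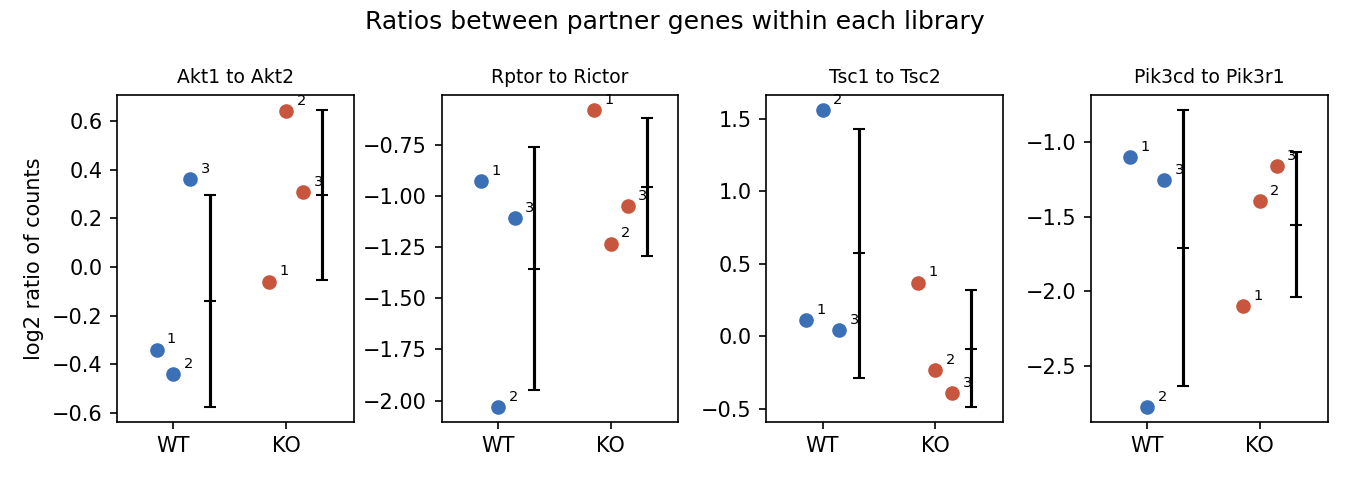
Log2 ratio of counts (vertical axes, each on its own scale) between partner genes in the 3 WT (blue) and 3 KO (red) libraries, numbered by replicate, with group mean and SD as black bars. WT2 is the lowest or highest WT library in each panel, and the groups overlap in all 4.

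Per kilobase of the principal transcript, the order of levels was led by Pik3r1 in both groups. In WT the level of Pik3r1 was 39.2 ± 12.3 CPM per kilobase (SD, n = 3), followed by Pik3cd at 17.4 ± 5.44, Rictor at 12.0 ± 2.52 and Akt1 at 8.14 ± 2.97 CPM per kilobase. Mtor, Rptor, Tsc1, Tsc2 and Akt2 followed in that order, from 7.40 ± 1.29 down to 5.10 ± 0.43 CPM per kilobase. Only Pik3r1 stood clear of its neighbour in WT, since the ranges of each later pair of neighbours overlapped. In KO the level of Pik3r1 was 31.5 ± 1.45 CPM per kilobase, Akt1 came next at 17.4 ± 1.32, and Pik3cd at 16.1 ± 4.86 and Rictor at 11.5 ± 1.36 CPM per kilobase followed. Tsc2, Akt2, Rptor, Tsc1 and Mtor came after them, from 8.77 ± 0.29 down to 4.88 ± 0.89 CPM per kilobase. In KO the ranges separated Pik3r1 from Akt1 and Rictor from Tsc2, and the other neighbours overlapped. Akt1 thus stood at place 4 in WT and place 2 in KO, and Mtor at place 5 in WT and place 9 in KO. Per kilobase of coding sequence the places of Akt1 were 5 and 2 and those of Mtor 8 and 9.

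Several members moved with WT2, the library of RNA integrity 5. Within WT it was the lowest library for 5 members, Pik3cd, Akt1, Akt2, Tsc2 and Rptor, whose transcripts have the highest GC content, and the highest for 3, Pik3r1, Rictor and Tsc1, which have the lowest. Across 12308 genes with a matched transcript, the deviation of log2 CPM from the gene's mean had a Spearman rho with GC content of -0.33 in WT2 and 0.42 in KO3, and between -0.01 and 0.11 in the other 4 libraries. The difference between groups, as a log2 fold change, had a rho of 0.25 with GC content over the same genes, whose median went from -0.26 in genes under 42% GC to 0.29 in genes of 58% or more. Over the 9 members the rho was 0.52. These are correlations across genes, which share libraries and are not independent replicates. With per-library trends in GC content and length removed, the log2 fold change was 0.79 for Akt1, 0.74 for Tsc2, 0.62 for Akt2 and -0.60 for Mtor. It was 0.31 for Rictor, 0.03 for Pik3r1, 0.28 for Rptor, 0.23 for Tsc1 and -0.25 for Pik3cd, and 0 of 9 members were called (edgeR, smallest adjusted p = 0.576). Without WT2 it was 0.88 for Akt1, 0.65 for Akt2, 0.50 for Tsc2 and -0.68 for Mtor. It was then 0.16 for Rptor, 0.36 for Tsc1, 0.099 for Rictor and -0.37 for Pik3cd. Rptor was also sensitive to replicate 1, with 0.56 without WT1 and 0.19 without the library labelled KO1.

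**Figure D4:**
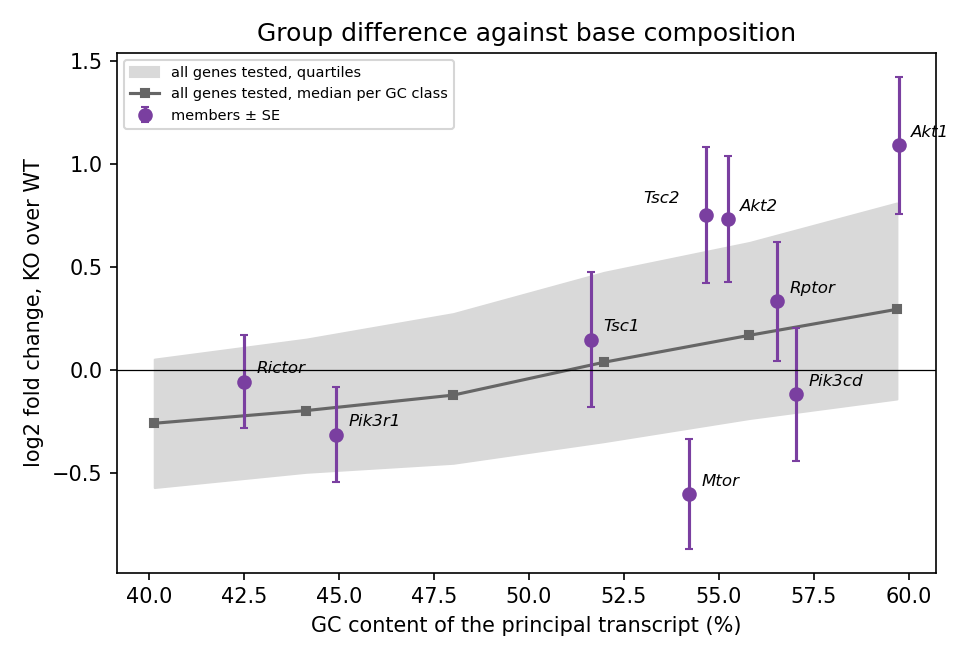
Log2 fold change of KO over WT (vertical axis) against GC content of the principal transcript in percent (horizontal axis) for the 9 members with SE (purple), over the median and quartiles of all genes tested in 6 GC classes (grey). Akt1, Tsc2 and Akt2 lie above the line of medians, and Mtor and Pik3cd below it, each by more than its SE. For Pik3cd the margin is small.

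Of 94 other genes of the pathway, grouped by role, 93 were tested and 0 passed over all genes in either direction by edgeR, with 9 at an unadjusted p under 0.05 (9.29% of all genes tested). Groups did not overlap in 16 of them (17.7% of all genes), 8 with KO higher (9.68%) and 8 with KO lower (8.01%). These counts are close to the shares over all genes. Their median log2 fold change was -0.10, with 35 positive and 58 negative values. Over all 12557 genes tested the median was -0.04, with 5948 positive and 6609 negative values. DESeq2 called 1 of them, Akt1s1 (adjusted p = 0.00288), where it called 1.89% of 13516 genes with an adjusted p. Akt1s1, named for this after its values were seen, encodes PRAS40, an inhibitory part of mTORC1 that AKT phosphorylates. It was low in every library, with 12, 16 and 8 counts in WT and 137, 179 and 151 counts in KO, or 1.13, 1.64 and 0.454 CPM against 6.10, 10.9 and 9.47 CPM. Its log2 fold change was 3.04 (SE 0.78, edgeR, adjusted p = 0.423), and its transcript has a GC content of 63.3%. In the authors' deposited table, Akt1s1 was not called, with a log2 fold change of 1.33 and an adjusted p of 0.305.

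Among the other class I PI3K genes, 0 of 8 passed and 6 had negative log2 fold changes, with a median of -0.32. The catalytic subunit genes Pik3ca, Pik3cb and Pik3cg, the last a leukocyte form coupled to chemokine receptors, had log2 fold changes of -0.30 (SE 0.27), -1.06 (SE 0.67) and -0.50 (SE 0.30). Pik3cg was at 64.9, 148 and 96.6 CPM for WT and 68.1, 80.9 and 70.2 CPM for KO, so that WT2 stood apart. Without WT2 the log2 fold change was -0.16 for Pik3cg and -0.077 for Pik3ca, and for Pik3cb it was -0.46 without WT3. Pik3r6, a regulatory subunit gene named after its values were seen, had 0, 0 and 3 counts in WT and 20, 35 and 28 counts in KO. It was the only gene of the 8 whose groups did not overlap (edgeR, adjusted p = 0.473). Pik3ap1, an adaptor that brings PI3K to receptors, was at 20.2 ± 7.996 CPM for WT libraries and 16.1 ± 9.74 CPM for KO libraries (SD, n = 3). Of 7 phosphatases that oppose PI3K or AKT 0 passed and 6 were negative. Inpp4b, a phosphatase of a PI3K-derived lipid, was at 527, 1162 and 692 CPM for WT and 508, 519 and 458 CPM for KO (log2 fold change -0.68, SE 0.27, edgeR, adjusted p = 0.510). WT2 stood far above the rest, and the log2 fold change was -0.31 without it and -0.30 with RNA integrity as a covariate. Inpp5d, which encodes the lipid phosphatase SHIP1 of blood cells, was at 178 ± 60.6 and 166 ± 8.06 CPM (SD, n = 3).

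The kinases next to AKT held 0 of 4 called genes, all with negative log2 fold changes. Pdpk1, which phosphorylates and activates AKT, was at 190, 210 and 164 CPM for WT and at 133, 146 and 153 CPM for KO. The groups did not overlap, and the log2 fold change was -0.38 (SE 0.19, edgeR, adjusted p = 0.561), or -0.07 once trends in GC content and length were removed. Sgk1, a related kinase that mTORC2 activates, was at 61.6 ± 38.2 CPM for WT and 54.9 ± 9.14 CPM for KO (SD, n = 3).

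Of 9 partners of the mTOR complexes, 0 passed, 5 were positive and 4 negative, with a median log2 fold change of 0.05. Mapkap1, which encodes the mTORC2 subunit SIN1, was at 52.6, 37.8 and 49.2 CPM for WT and at 68.0, 115 and 86.1 CPM for KO. Every KO library lay above WT, and the log2 fold change was 0.95 (SE 0.27, edgeR, adjusted p = 0.448) and 1.07 once trends in GC content and length were removed. Mlst8, a subunit of both complexes, was at 11.5 ± 5.83 and 6.20 ± 2.66 CPM, and Deptor, an inhibitor of mTOR, at 1.29 ± 1.64 and 3.07 ± 0.863 CPM (SD, n = 3). Of 10 tested genes in the branch of TSC, RHEB and the energy sensor AMPK, 0 passed and 5 were positive. Rheb itself was at 44.4 ± 4.74 CPM for WT and 44.3 ± 3.15 CPM for KO, the AMPK catalytic subunit Prkaa1 at 33.5 ± 17.5 and 31.5 ± 7.01 CPM, and Ddit4, a stress-induced inhibitor of mTORC1, at 70.7 ± 18.7 and 72.6 ± 12.2 CPM (SD, n = 3). Prkaa2, the other AMPK catalytic subunit gene, had 3 counts in all and was not tested. Of 24 genes of the amino acid branch, 0 passed, 9 were positive and 15 negative, with a median of -0.19.

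Of 11 genes for kinase substrates downstream of mTORC1, 0 passed, with 6 positive and a median of 0.04. Rps6kb1, the kinase S6K1, was at 70.9 ± 23.8 CPM for WT and 47.8 ± 19.4 CPM for KO (SD, n = 3). The translation repressors Eif4ebp1 and Eif4ebp2 were at 5.99 ± 8.29 and 5.41 ± 1.35 CPM, and at 138 ± 5.99 and 137 ± 15.1 CPM (SD, n = 3). Of 7 genes of AKT substrates 0 passed, with a median of -0.01. Foxo1 was at 549, 809 and 442 CPM for WT and at 433, 453 and 472 CPM for KO (log2 fold change -0.41, SE 0.23, edgeR, adjusted p = 0.605, and -0.14 without WT2), and Foxo3 at 169 ± 21.4 and 168 ± 17.8 CPM (SD, n = 3). Of 5 genes that FOXO1 is known to drive in T cells 0 passed, with a median of -0.12, and Klf2, a transcription factor of quiescence and tissue egress, was at 92.2 ± 28.7 and 74.1 ± 20.4 CPM (SD, n = 3). Of 8 genes that mTORC1 is known to raise in T cells 0 passed, 2 were positive and 6 negative, with a median of -0.13.

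**Figure D5:**
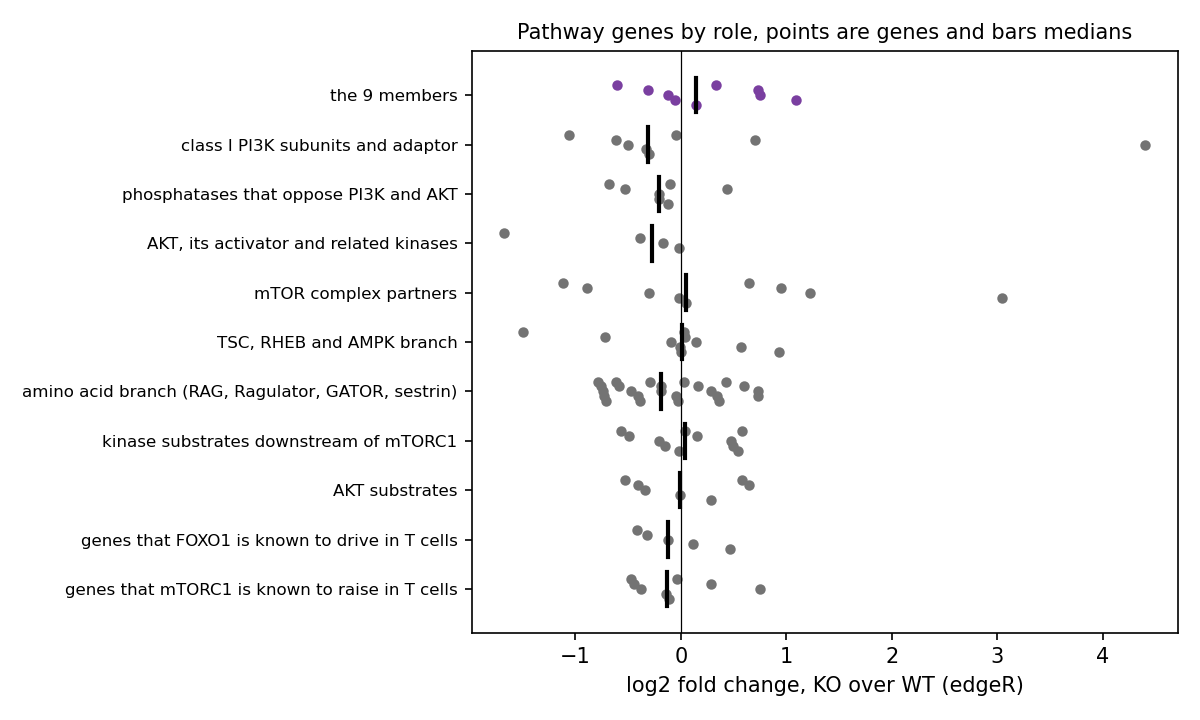
Log2 fold change of KO over WT by edgeR (horizontal axis) for the 9 members (purple) and 93 other tested pathway genes (grey) by role, each point a gene and each bar the median. The medians of the roles lie between -0.32 and 0.15.

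In the authors' deposited table, 0 of 9 members had an adjusted p under 0.05, where 325 of 13509 rows with an adjusted p did (2.41%). In the authors' deposited table, Akt1 had a log2 fold change of 1.08 with an adjusted p of 0.0825, the smallest of the members. Those of Mtor and Pik3r1 were -0.60 and -0.48 in the authors' deposited table. The authors' deposited table gave 0.53 for Pik3cd, where the estimate from the counts was -0.12, and 0.48 for Tsc2 and 0.53 for Akt2. DESeq2 run here on the deposited counts gave -0.12 for Pik3cd, 0.75 for Tsc2 and 0.73 for Akt2. The reason for the gap was not tested.

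The mean of the standardised log2 CPM of the 9 members was 0.05, -0.24 and -0.35 in WT and 0.27, 0.12 and 0.16 in KO. This mean joins members with unlike patterns over the 6 libraries. Pearson r between members ran from -0.85 for Tsc2 and Pik3r1 to 0.87 for Rptor and Tsc2. The genes whose log2 CPM over the 6 libraries was most like the members' mean were Trim3, Mcoln1 and Caskin1, with Pearson r of 0.9997, 0.995 and 0.994. With 6 libraries and 12557 genes tested such values are a description of these libraries.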

How the data were processed

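The authors deposited estimated counts per gene, with their own log2 fold changes, standard errors, test scores, p-values and a mean normalized signal, per the file headers. For the re-analysis the counts were rounded to whole numbers. Tools named in the submitters' processing notes are DESeq2 1.34.0, Salmon 1.4.0, fastp 0.20.0 and R 4.1.2, and their roles, the build, annotation and strand were not given in the sources used here. An Ovation kit amplified the RNA, per the labels' protocols. Normalized values in 6 columns match no sample label and were not used.

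Rows with one Entrez identifier were added together, leaving 32090 genes. filterByExpr (minimum count 10, minimum total 15) kept 12557. Counts were TMM-scaled and tested with edgeR 4.0.16 (robust quasi-likelihood, genotype only, Benjamini-Hochberg at 0.05) in R 4.3.3. The SE is the log2 fold change over the square root of F. DESeq2 1.42.0, limma-voom (limma 3.58.1), other scalings and filters, covariates and libraries left out in turn were alternatives. Log2 CPM used a prior count of 2 and ratios a pseudocount of 1. Sequences, lengths and GC content come from GENCODE M21 transcripts (principal transcript per gene), where all 9 members matched. The p-values set group differences against the spread between libraries, which holds pool, sort batch and RNA quality together. They cover no other source of error and take the libraries of a group as independent. KO2 and KO3 were the closest pair (Pearson r = 0.97), and whether they share material was not tested.

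Members and lists were chosen with earlier results of these data known. Beside the 9 members, the rule named 22 pathway genes for their role (some are not reported here), any pathway gene called over all genes, and the 3 genes most like the members' mean pattern.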

Additional observations from a re-analysis of the deposited data

How the results depend on the processing

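The count of called members stayed at 0 in all 18 alternatives, and Akt1, Akt2, Tsc2, Rptor and Mtor kept their direction in each. The count of other pathway genes called was 0 except by DESeq2, which gave 1. All genes called numbered 3, against 8 without a filter, 255 by DESeq2, 1 with RNA integrity as a covariate, 1 with KO2 and KO3 summed and 1 to 3 with a library left out (1 without WT1, WT2, WT3, KO2 or KO3 and 3 without KO1). The cause was not tested.

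Some log2 fold changes that were not called changed sign. With GC content and length trends removed, an alternative chosen after the data were seen, they were Rictor 0.31, Pik3r1 0.030, Pik3ca 0.11, Sgk1 0.080, Rheb 0.065, Prkaa1 0.23, Ddit4 -0.39, Eif4ebp2 0.012 and Foxo3 0.012. With the RNA integrity number they were Rictor 0.11 and Sgk1 0.47. By limma-voom they were Pik3cd 0.045, Sgk1 0.19, Prkaa1 0.17, Eif4ebp1 0.82, Eif4ebp2 0.089 and Foxo3 0.047. With upper-quartile scaling they were Rheb 0.032, Eif4ebp2 0.027 and Foxo3 0.032, with library size alone Rheb 0.016, and without a filter Rheb 0.035, Eif4ebp2 0.028 and Foxo3 0.036. With batch A against the rest they were Prkaa1 0.018 and Eif4ebp1 0.0035, and with KO2 and KO3 summed Rheb 0.022 and Ddit4 -0.024. With a library left out the log2 fold change ran from -0.19 to 0.099 for Rictor, -0.090 to 0.36 for Tsc1, -0.37 to 0.10 for Pik3cd, -0.95 to 0.038 for Pik3ap1, -0.36 to 0.14 for Inpp5d, -0.41 to 0.46 for Sgk1, -0.059 to 0.090 for Rheb, -0.43 to 0.35 for Prkaa1, -0.094 to 0.26 for Ddit4, -0.73 to 2.12 for Eif4ebp1, -0.094 to 0.053 for Eif4ebp2 and -0.099 to 0.079 for Foxo3. The log2 ratio difference ran from -0.38 to 0.46 for Pik3cd to Pik3r1, 0.26 to 0.69 for Akt1 to Akt2, 0.062 to 0.61 for Rptor to Rictor and -0.92 to -0.16 for Tsc1 to Tsc2, and the members' median from -0.02 to 0.28.

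The replicate numbers were not used as pairs in the main fit, and only WT1 and KO1 shared both a number and a sort batch. Deviations of same-numbered libraries from their group means correlated at 0.0093, 0.049 and 0.026, against -0.070 to 0.051 for the other pairs. Such values cannot show whether libraries were paired. With the replicate block 3 genes, 0 members and 0 other pathway genes were called and the members' median was 0.17. The block cannot alter the mean difference of a ratio in this balanced design. Under the block Prkaa1 was 0.039 and Eif4ebp1 1.27.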
